A study of Mus musculus with 12 samples.

Results

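The death receptor pathway was followed through 8 genes in mouse liver: the receptor genes Fas and Tnfrsf10b, the adaptor genes Fadd and Ripk1, the inhibitor genes Cflar and Xiap, and the initiator caspase genes Casp8 and Casp9. They were chosen by name, 7 of them through the symbols of the platform annotation. Ripk1 is not among those symbols and was found through its Entrez Gene number, which is the number of its probe set. These are 8 of 16257 genes that could be named on the arrays, each with 1 probe set.

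Each of the 12 livers was measured on 1 array, and 4 groups of 3 mice were compared. The first group was c-Met knockout livers taken 2 h after recombinant mouse hepatocyte growth factor (HGF) was injected intraperitoneally at 2 µg, and the second was c-Met knockout livers without stimulation. The third was control livers after the same HGF treatment, and the fourth was control livers without stimulation. All mice carried c-Met loxP/loxP, that is, floxed copies of the HGF receptor gene Met, and the controls had no deletion. The knockouts also carried a Cre transgene, Alfp-Cre or Alb-Cre. Alfp-Cre is driven by regulatory elements of albumin and alpha-fetoprotein and active before birth, and Alb-Cre is driven by the albumin promoter. The labels do not give which transgene an array stands for, nor age, sex or strain. Both transgenes act in the hepatocyte lineage, before birth for Alfp-Cre, so liver cells of other origin can keep Met. The protocol also mentions NaCl, so whether the unstimulated mice were injected is not known. The HGF effect below is the mean with HGF minus the mean without it, within 1 genotype.

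Fas is a cell surface receptor that, when bound by Fas ligand, gathers the adaptor FADD and caspase-8 into a complex that starts apoptosis. Hepatocytes are known for their sensitivity to Fas, and their death by this route runs through cleavage of the BCL2 family member BID and through the mitochondria, where caspase-9 is activated. Met has been described as binding Fas on hepatocytes and keeping it from its ligand. FLIP, the product of Cflar, resembles caspase-8 and competes with it in the receptor complex, and XIAP blocks caspase-9 and caspases that act after it. RIPK1 is a kinase that leads from tumour necrosis factor receptors either to NF-kappaB and survival or to death.

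Values are given as log2(intensity + 1), where the intensities were background corrected and normalized by the submitters. They are comparable between arrays for 1 gene and not between genes. Fas, Ripk1, Casp8 and Cflar lay above a log2 value of 4 on all 12 arrays and were tested. Tnfrsf10b, Fadd, Casp9 and Xiap did not pass the filter of at least 4 on at least 3 arrays, so 4 of the 8 genes entered the tests.

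Fas and Ripk1 are the pair of tested members whose levels followed the same arrays, and their promoters are shown for that reason. Each sequence runs from 250 bases before to 50 bases after a gene start in RefSeq, build GRCm38.p6, on the plus strand, and the capitals mark the letters TGANTCA, the core of an AP-1 site.
Fas promoter, chr19:34290409-34290708: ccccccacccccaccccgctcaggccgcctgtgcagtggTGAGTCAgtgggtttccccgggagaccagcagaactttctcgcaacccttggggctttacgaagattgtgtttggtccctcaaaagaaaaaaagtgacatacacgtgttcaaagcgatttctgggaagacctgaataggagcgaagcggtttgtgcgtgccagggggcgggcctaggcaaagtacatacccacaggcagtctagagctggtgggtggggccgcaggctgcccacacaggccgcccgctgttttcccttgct
Ripk1 promoter, first start, chr13:34002113-34002412: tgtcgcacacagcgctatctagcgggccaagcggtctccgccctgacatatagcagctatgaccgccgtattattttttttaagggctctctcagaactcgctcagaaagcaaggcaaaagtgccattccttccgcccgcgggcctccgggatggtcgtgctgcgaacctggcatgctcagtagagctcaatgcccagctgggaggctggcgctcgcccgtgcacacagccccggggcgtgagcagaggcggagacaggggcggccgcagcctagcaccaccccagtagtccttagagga
Ripk1 promoter, second start, chr13:34002624-34002923: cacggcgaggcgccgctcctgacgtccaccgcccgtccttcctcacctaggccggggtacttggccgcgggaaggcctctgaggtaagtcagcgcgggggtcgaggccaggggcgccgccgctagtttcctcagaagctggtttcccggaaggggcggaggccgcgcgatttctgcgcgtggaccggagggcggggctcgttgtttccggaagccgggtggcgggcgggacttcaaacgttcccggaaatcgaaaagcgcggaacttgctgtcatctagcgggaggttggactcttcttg
The Fas window held 1 match to TGANTCA, which reads the same on both strands, beginning at -211 from the start. Such letters stood in 7.81% of all 32851 RefSeq windows of this length. The NF-kappaB consensus, searched on both strands, stood in 8.46% of those windows and in neither Fas nor Ripk1. Over the 10 windows of the 7 members with an entry, the other match was 1 NF-kappaB consensus in a window of Xiap. A match or its lack describes these letters in these windows and is not a measure of binding.

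All 5 hepatocyte markers with a probe set passed the filter, and their summed log2 intensity was 15.73 to 15.80 over the 12 arrays. That sum is set by the very abundant Alb, Apoa1 and Ttr; among the less abundant markers Tat ranged from 11.10 to 12.47 and Hnf4a from 8.93 to 10.06. The defining markers of T and NK cells, which use the Fas pathway, were near the lowest values of the arrays: 0 of 6 passed the filter and their summed log2 intensity was 4.43 to 4.64. Met transcript ranged from 6.29 to 7.40 in knockout livers with HGF, from 6.68 to 7.18 in knockout livers without HGF, from 6.59 to 7.02 in control livers with HGF and from 6.62 to 6.84 in control livers without HGF. Which part of the transcript its probes cover is not known, so Met does not check the genotype labels. In the numbering of the arrays, control livers hold 1 to 6 and knockout livers 7 to 12, so genotype and array order cannot be told apart. The 2 knockout arrays numbered 2 ran opposite to the HGF direction of controls in genes with large HGF effects in controls. In Ripk2, where controls lay at 10.25 to 10.89 with HGF and at 4.41 to 5.23 without it, the array labelled knockout replicate 2 with HGF was at 5.38 and that labelled knockout replicate 2 without HGF at 10.81. Whether their labels were exchanged was not tested, the labels were kept, and results are also given with both left out. As the 2 arrays were picked by their values, those results describe how much rests on them and are not an independent test. Of the knockout arrays labelled with HGF, replicate 3 was at 10.62 in Ripk2 and replicate 1 at 5.23, near replicate 2. Within their own groups, the arrays that stood apart in Ripk2 were thus replicate 3 with HGF and replicate 2 without HGF. The knockout arrays numbered 1 also ran opposite to controls in Ripk2, though by less than those numbered 2.

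Fas was high on all control arrays with HGF and on 2 knockout arrays, 1 from each knockout group. Its log2 values were 7.63, 6.66 and 9.17 in knockout livers with HGF (replicates 1 to 3) and 6.63, 8.99 and 6.56 in knockout livers without HGF. They were 8.98, 8.58 and 8.02 in control livers with HGF, against 7.15, 7.16 and 7.08 in control livers without HGF. The control groups did not overlap, and the 3 unstimulated controls lay within 0.09 of each other (SD 0.05), whereas the knockout groups overlapped and spanned the whole range. The highest Fas value of the series was knockout replicate 3 with HGF and the lowest knockout replicate 3 without HGF, a 6.10-fold range.

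Ripk1 was high on the same 5 arrays. Its log2 values were 6.07, 5.88 and 6.90 in knockout livers with HGF and 5.77, 6.84 and 5.73 in knockout livers without HGF. They were 7.04, 6.82 and 6.58 in control livers with HGF, against 6.07, 5.83 and 6.03 in control livers without HGF. Again the control groups did not overlap and the knockout groups did. The arrays with the highest Fas and the highest Ripk1 were the 3 control arrays with HGF, knockout replicate 2 without HGF and knockout replicate 3 with HGF. Between the fifth and the sixth array there was a gap for Ripk1, at 6.58 and 6.07, while Fas had an array in between, knockout replicate 1 with HGF at 7.63.

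**Figure D1:**
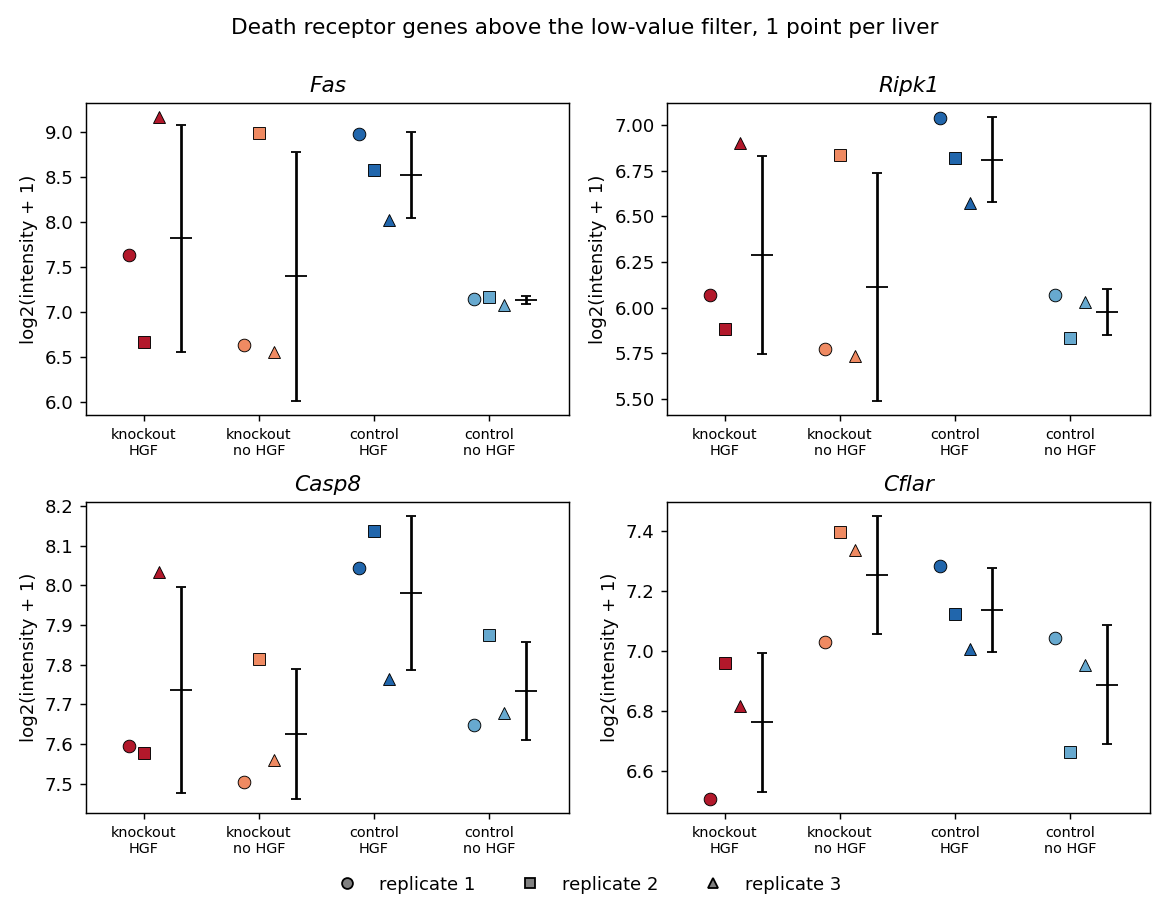
Log2(intensity + 1) of Fas, Ripk1, Casp8 and Cflar in each liver, by group (3 livers each, with the marker shape giving the replicate number); the bar beside each group is the mean ± SD. Fas and Ripk1 are high on the 3 control arrays with HGF, on knockout replicate 2 without HGF and on knockout replicate 3 with HGF, and each panel has its own axis range.

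**Figure D2:**
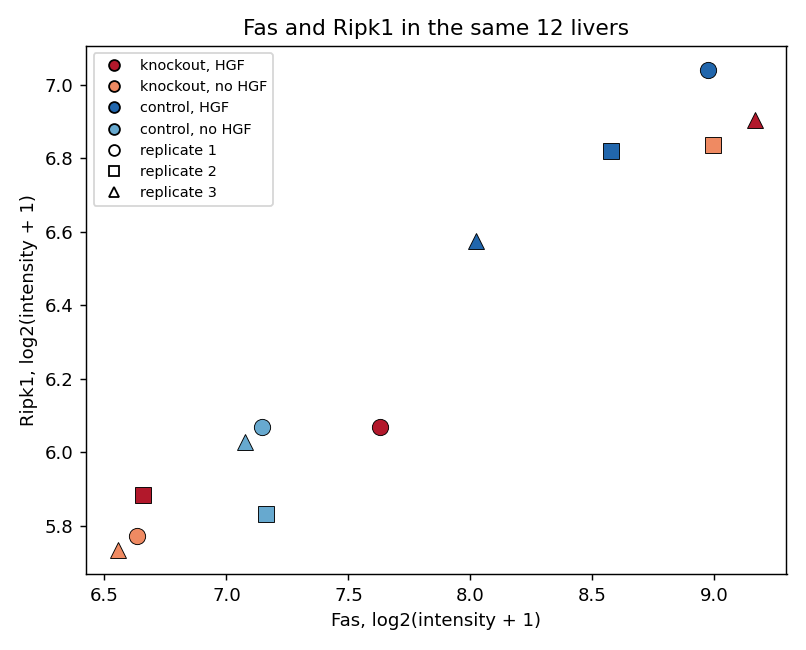
Ripk1 against Fas, both as log2(intensity + 1), with 1 point per liver. The 5 arrays at the upper right hold Ripk1 values of 6.58 to 7.04, and the other 7 lie at or under 6.07.

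Casp8, the initiator caspase that Fas and FADD recruit, varied less, over a 1.55-fold range. Its log2 values were 7.59, 7.58 and 8.03 in knockout livers with HGF and 7.51, 7.81 and 7.56 in knockout livers without HGF. They were 8.04, 8.14 and 7.76 in control livers with HGF, against 7.65, 7.88 and 7.68 in control livers without HGF. The control groups overlapped through control replicate 2 without HGF, and within each knockout group the highest array was the one with the highest Fas. Casp8 shared 4 of its 5 highest arrays with Fas, and Pearson's r between them over the 12 arrays was 0.83.

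Cflar did not follow Fas over the 12 arrays (Pearson's r = 0.19), though it shared 3 of its 5 highest arrays with Fas. Its log2 values were 6.50, 6.96 and 6.82 in knockout livers with HGF and 7.03, 7.40 and 7.34 in knockout livers without HGF. They were 7.28, 7.12 and 7.01 in control livers with HGF, against 7.04, 6.66 and 6.95 in control livers without HGF. All 3 knockout arrays with HGF lay below all 3 knockout arrays without HGF and below all 3 control arrays with HGF, while the control groups overlapped. Knockout replicate 2 without HGF and knockout replicate 3 with HGF, the arrays with high Fas, fell on opposite sides in Cflar, at 7.40 and 6.82.

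For the HGF effect in knockout livers, limma called 0 of the 4 tested members at a Benjamini-Hochberg adjusted p under 0.05 over all 6683 tested probe sets, where 0.0% of all were called. Fas differed by 0.42 (SE 0.70, 95% confidence interval -1.14 to 1.98) and Ripk1 by 0.17 (SE 0.32, interval -0.54 to 0.89). Cflar was 0.49 lower on the log2 scale by its means of 6.76 ± 0.23 and 7.25 ± 0.20 with and without HGF (SD, n = 3; difference -0.49, interval -0.85 to -0.14, limma adjusted p = 0.9995, unadjusted p = 0.0110). It was the 1 member of 4 under an unadjusted p of 0.05, against 1.9% of all tested probe sets. Cflar was also the 1 of 4 whose groups with and without HGF did not overlap, against 3.8% of all tested probe sets in either direction and 1.24% with the lower values under HGF. The positive Fas and Ripk1 differences rested on replicate 3 with HGF, without which they were -0.25 and -0.14. With both knockout arrays numbered 2 left out they were 1.80 (SE 0.45, limma adjusted p = 0.0633) and 0.73 (limma adjusted p = 0.144). That of Cflar was then -0.52 (limma adjusted p = 0.149). These arrays had been singled out for running opposite to the HGF direction of controls, and Fas and Ripk1 ran the same way on them. Leaving them out therefore raises both differences by construction, and these p-values are not independent support.

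For the HGF effect in control livers, all 4 tested members were higher in the mean with HGF, and limma called 0 of 4, against 0.404% of all tested probe sets. Fas averaged 8.53 ± 0.48 with HGF and 7.13 ± 0.05 without it (SD, n = 3), a difference of 1.40 or 2.63-fold (SE 0.70, interval -0.16 to 2.96, limma adjusted p = 0.305). Ripk1 averaged 6.81 ± 0.23 with HGF and 5.98 ± 0.13 without it, a difference of 0.83 or 1.78-fold (SE 0.32, interval 0.12 to 1.55, limma adjusted p = 0.196). Casp8 differed by 0.25 (interval -0.10 to 0.60) and Cflar by 0.25 (interval -0.10 to 0.60). Ripk1 was the 1 member of 4 under an unadjusted p of 0.05, against 19.6% of all tested probe sets. Fas and Ripk1 were the 2 of 4 whose groups lay apart, both with the higher values under HGF, against 37.7% of all in either direction and 14.1% in that one.

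These calls depended on which arrays set the spread. In limma fitted to the 6 control arrays alone, Fas (SE 0.23, adjusted p = 0.0116) and Ripk1 (SE 0.14, adjusted p = 0.0135) rose, so 2 of 4 members passed where 6.79% of all tested probe sets rose and 12% were called in either direction. With array weights the same 2 passed, at differences of 1.20 for Fas (adjusted p = 0.0471) and 0.73 for Ripk1 (adjusted p = 0.0206), where 19.1% of all were called and 8.6% rose. With both knockout arrays numbered 2 left out, Ripk1 passed (adjusted p = 0.0442) and Fas had an adjusted p of 0.0503 in limma, where 8.16% of all were called and 5.34% rose. Neither passed when any single array was left out, where the difference ranged from 1.17 to 1.65 for Fas and from 0.72 to 0.95 for Ripk1.

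**Figure D3:**
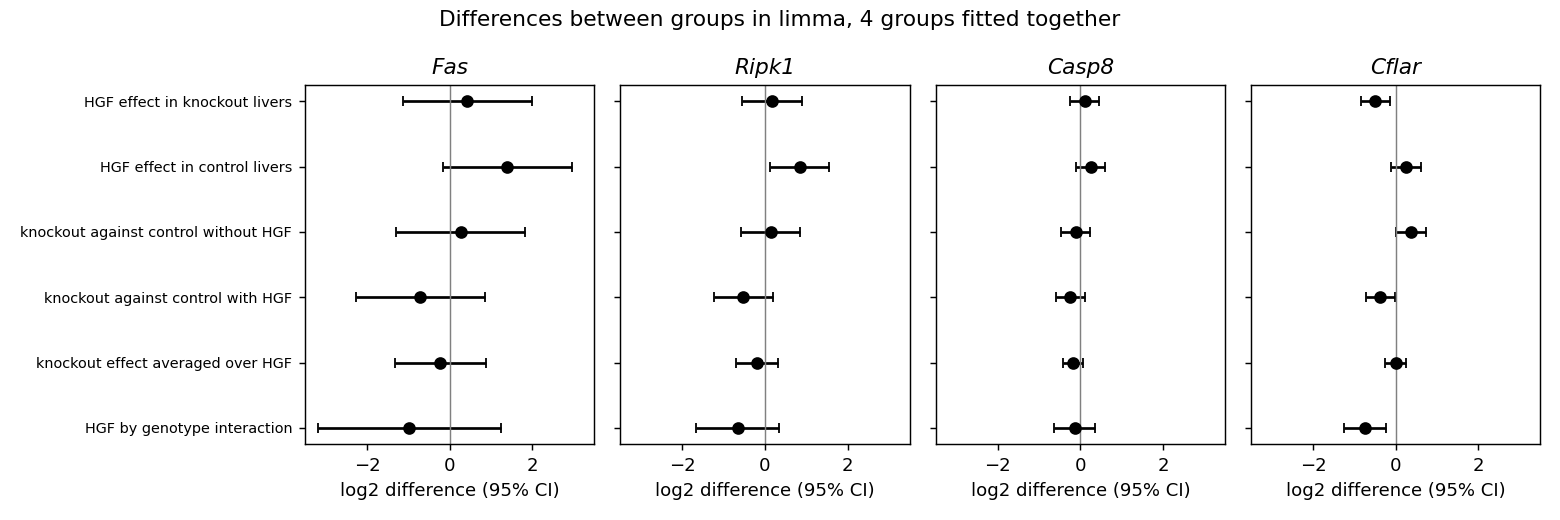
Log2 differences of the 4 tested members in 6 comparisons (points) with 95% confidence intervals (bars) from limma on all 4 groups; the interaction subtracts the HGF effect of controls from that of knockouts. The intervals of Fas are the widest, from -1.14 to 1.98 for HGF in knockout livers and from -0.16 to 2.96 for HGF in control livers.

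The difference between the HGF effects was tested directly as an interaction, in which the effect of controls is subtracted from that of knockouts. Limma called 0 of 4 members there, where 0.0% of all tested probe sets were called. For Cflar the interaction was -0.74 (SE 0.23, interval -1.24 to -0.24, limma adjusted p = 0.344, unadjusted p = 0.00775), with Cflar lower with HGF in knockouts and higher with HGF in the means of controls. It was the 1 of 4 under an unadjusted p of 0.05, against 10.8% of all. The interaction was -0.97 for Fas (interval -3.18 to 1.23), -0.66 for Ripk1 (interval -1.68 to 0.35) and -0.14 for Casp8 (interval -0.63 to 0.36). That of Fas was 0.40 with both knockout arrays numbered 2 left out.

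Between genotypes without HGF, limma called 0 of 4 members, against 0.0599% of all tested probe sets. Fas averaged 7.39 ± 1.39 in knockout livers and 7.13 ± 0.05 in control livers (SD, n = 3), a difference of 0.27 (interval -1.29 to 1.83). That value rested on knockout replicate 2, without which the difference was -0.53, and that of Ripk1 was -0.22 in place of 0.14. The other 2 knockout arrays, at 6.63 and 6.56, lay below the 3 control arrays, at 7.08 to 7.16. Cflar was 0.37 higher in the mean of knockouts (interval 0.01 to 0.72, limma adjusted p = 0.439), and it was the 1 of 4 under an unadjusted p of 0.05, against 10.8% of all. In 0 of 4 members did the groups lie apart, against 18.7% of all in either direction.

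Between genotypes with HGF, limma again called 0 of 4 members, against 0.015% of all tested probe sets, and all 4 were lower in the mean of knockouts. Cflar averaged 6.76 ± 0.23 in knockout livers and 7.14 ± 0.14 in control livers (SD, n = 3), a difference of -0.38 (interval -0.73 to -0.02, limma adjusted p = 0.513, unadjusted p = 0.0392), and it was the 1 of 4 under an unadjusted p of 0.05, against 9.58% of all. It was also the 1 member of 4 whose groups lay apart, against 14.9% of all in either direction and 6.08% with the lower values in knockouts. Fas differed by -0.71 (interval -2.27 to 0.85), Ripk1 by -0.53 (interval -1.24 to 0.19) and Casp8 by -0.25 (interval -0.60 to 0.10). Without knockout replicate 3, the differences were -1.38 for Fas and -0.83 for Ripk1, with no call. Averaged over both conditions, limma called 0 of 4, with 0 of 4 under an unadjusted p of 0.05, against 0.015% and 9.38% of all. Those averaged differences were -0.22 for Fas, -0.19 for Ripk1, -0.18 for Casp8 and -0.00 for Cflar.

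The summed signal of neutrophil markers moved with Fas and Ripk1, through 2 of the 6 markers. Of 6 markers, 4 had a probe set and 2, the calcium-binding protein genes S100a8 and S100a9, passed the filter, while Mpo and Ngp stayed between 1.80 and 3.33. The summed log2 intensity of the 4 was 8.07, 4.43 and 10.26 in knockout livers with HGF, 5.42, 10.27 and 4.94 in knockout livers without HGF, 10.32, 11.45 and 9.57 in control livers with HGF and 6.25, 5.59 and 4.74 in control livers without HGF. The 5 arrays with high Fas had the 5 highest sums, and knockout replicate 1 with HGF, sixth for Fas, was sixth for these markers. Their part in the Fas and Ripk1 values was not tested, and in whole liver RNA more cells of a type and more RNA per cell cannot be told apart. Kupffer cell markers, of which 6 of 6 passed, summed to 10.75 to 11.45 in knockouts with HGF, 10.67 to 11.44 in knockouts without HGF, 10.75 to 11.27 in controls with HGF and 11.21 to 11.78 in controls without HGF. Sinusoidal endothelial markers (6 of 6 passed) summed to 10.32 to 10.64 in knockouts with HGF and 10.26 to 10.62 in knockouts without HGF. They summed to 10.14 to 10.17 in controls with HGF and 10.41 to 10.49 in controls without HGF. For these markers the control groups lay apart, and so did the genotypes with HGF. Stellate cell markers (3 of 6 passed) summed to 9.14 to 9.45 in knockouts with HGF, 9.19 to 9.47 in knockouts without HGF, 9.10 to 9.27 in controls with HGF and 8.77 to 9.17 in controls without HGF. Cholangiocyte markers, of which 1 of 6 passed, Spp1, summed to 9.06 to 9.60 in knockouts with HGF, 9.41 to 10.19 in knockouts without HGF, 8.60 to 9.35 in controls with HGF and 8.49 to 8.70 in controls without HGF. In the stellate cell and cholangiocyte lists the genotypes lay apart without HGF. Of all tested probe sets, taken singly and in either direction, 37.7% lay apart for HGF in controls. Between genotypes, 18.7% lay apart without HGF and 14.9% with HGF. The part of any of these markers in the members' values was not tested.

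The remaining 4 genes gave values near background. Tnfrsf10b, the mouse death receptor for the ligand TRAIL, ranged from 1.86 to 2.22 over the 12 arrays. Fadd, the adaptor that links Fas to caspase-8, ranged from 2.87 to 3.37, and Xiap from 2.99 to 3.84. Low values of these probe sets do not show that the transcripts were absent. Casp9, which acts downstream of the mitochondria, came closest to the filter, with 1 array at or above 4. Its log2 values were 3.80, 4.17 and 2.74 in knockout livers with HGF, 3.99, 3.42 and 4.0 in knockout livers without HGF (the last just under 4 before rounding), 3.0, 3.41 and 3.60 in control livers with HGF and 3.38, 3.73 and 3.71 in control livers without HGF. Within each knockout group, the array with the highest Fas had the lowest Casp9. With no filter, limma called 0 of these 4 genes in any of the 6 comparisons, with 0 of 24 tests under an unadjusted p of 0.05 and differences of -0.27 to 0.24.

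**Figure D4:**
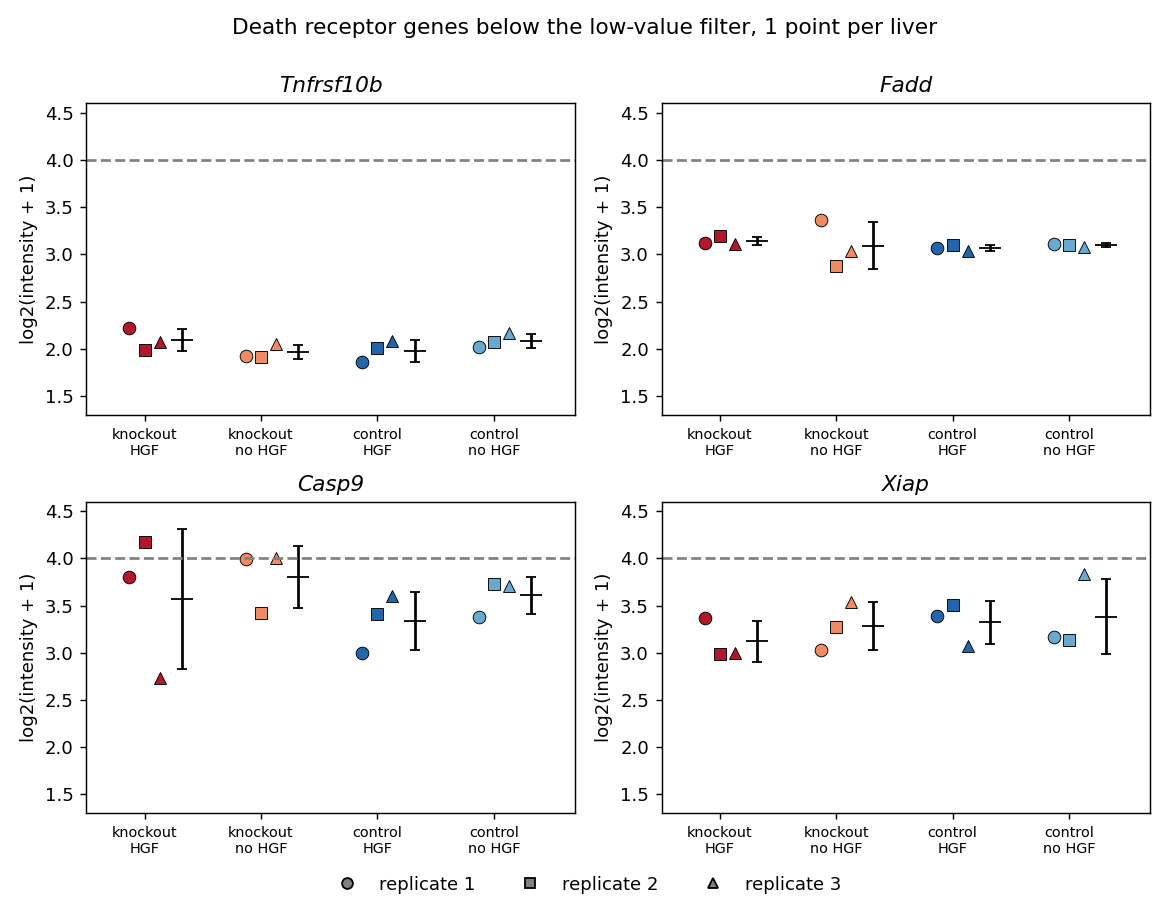
Log2(intensity + 1) of Tnfrsf10b, Fadd, Casp9 and Xiap in each liver, by group (3 livers each, with the marker shape giving the replicate number); the bar beside each group is the mean ± SD and the dashed line is the filter at 4. Casp9 reached 4.17 on knockout replicate 2 with HGF, its one value at or above the line, and the other 3 genes stayed under it on all arrays.

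Other genes of the pathway were read in 5 lists of 87 genes, of which 82 had a probe set and 47 passed the filter. For the HGF effect in knockout livers, limma called 0 of the 47, with 1 (2.1%) under an unadjusted p of 0.05 against 1.9% of all. Their median difference was -0.07 against -0.00 over all tested probe sets. For the HGF effect in control livers, limma called 0 of the 47, with 20 (42.6%) under an unadjusted p of 0.05 against 19.6% of all. Their median there was 0.13 against -0.09 over all tested probe sets, and 55.3% had a positive difference against 35.6% of all. In the fit to the control arrays alone, 12 of the 47 rose and 4 fell, where 6.79% of all tested probe sets rose and 12% were called in either direction. For the interaction, limma called 0 of the 47, with 14 (29.8%) under an unadjusted p of 0.05 against 10.8% of all.

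Among ligands and receptors, 4 of 14 genes passed the filter and their median HGF effect was 0.04 in knockout livers and 0.40 in control livers. Tnfrsf1a, the main receptor of tumour necrosis factor, was at 8.81, 8.39 and 8.81 in knockouts with HGF and 8.33, 8.57 and 8.01 in knockouts without HGF, a difference of 0.37 (SE 0.16, limma adjusted p = 0.9995). It was at 8.83, 8.99 and 8.93 in controls with HGF, against 8.29, 8.08 and 8.07 in controls without HGF, a difference of 0.77 (SE 0.16, limma adjusted p = 0.0722), with no overlap between the control groups. Tnfrsf1b, its second receptor, differed in controls by 0.58, Ltbr, the lymphotoxin beta receptor, by 0.21 and Tnfsf12, which encodes the ligand TWEAK, by -1.06. Of these 4, the control groups lay apart upward in 2, Tnfrsf1a and Tnfrsf1b, and downward in 1, Tnfsf12. Of all tested probe sets, 14.1% lay apart upward and 23.7% downward. The ligand gene Tnf stayed mostly under the filter, at 2.67, 2.83 and 3.65 in knockouts with HGF and 2.32, 4.15 and 2.50 in knockouts without HGF. It was at 3.75, 5.14 and 3.56 in controls with HGF, against 2.99, 2.72 and 2.61 in controls without HGF. Fasl, the gene for Fas ligand, lay between 1.86 and 2.04 on all 12 arrays.

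Among adaptors and regulators of the receptor complex, 18 of 22 genes passed the filter, and their median HGF effect was -0.10 in knockout livers and 0.40 in control livers. In controls 11 of the 18 had groups that lay apart upward and 1 downward, against 14.1% and 23.7% of all tested probe sets, and in the fit to the control arrays alone 7 rose and 1 fell, against 6.79% of all that rose and 12% called in either direction. Ripk2, a kinase related to Ripk1 that serves NOD receptors, was at 5.23, 5.38 and 10.62 in knockouts with HGF and 6.70, 10.81 and 5.60 in knockouts without HGF. It was at 10.89, 10.82 and 10.25 in controls with HGF, against 4.72, 4.41 and 5.23 in controls without HGF, a difference of 5.86 (SE 1.50, limma adjusted p = 0.0985). The same 5 arrays as for Fas were high, at 10.25 to 10.89, and the others lay at 4.41 to 6.70. Tnfaip3, which encodes A20, an enzyme that edits ubiquitin on RIPK1, had the largest difference in controls among the 47, at 7.83 (SE 2.07, limma adjusted p = 0.102). Tradd, an adaptor of the tumour necrosis factor receptor, differed in controls by -0.65 and Dedd2, a death effector domain gene, by -0.41.

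Caspases and their targets did not share this direction. Of 15 genes 10 passed the filter, and their median HGF effect was 0.09 in knockout livers and -0.11 in control livers, where 1 of 10 was positive against 35.6% of all. Casp4, an inflammatory caspase, was the exception, at 2.78, 2.44 and 4.50 in knockouts with HGF and 2.53, 5.50 and 2.25 in knockouts without HGF. It was at 5.61, 5.00 and 4.64 in controls with HGF, against 2.25, 2.44 and 2.46 in controls without HGF, a difference of 2.70 (SE 0.79, limma adjusted p = 0.118). Lmna, a nuclear lamin gene whose product caspases cleave, differed in controls by -0.26 and the inflammatory caspase gene Casp1 by -0.02.

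In the BCL2 family and mitochondrial arm, 12 of 26 genes passed the filter, with a median HGF effect of -0.07 in knockout livers and 0.04 in control livers. In controls, Bid, the link from caspase-8 to the mitochondria, differed by 0.66 (SE 0.31) and Bcl2l1, which encodes the survival protein BCL-XL, by 0.61 (SE 0.36). The genes of the pro-death proteins PUMA (Bbc3) and BAD differed by -0.73 and -0.45. None of these 4, named by the size of their difference, passed limma, with adjusted p of 0.206 to 0.379. The lowest limma adjusted p of the list in controls was 0.117, for another gene.

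Of the 10 genes in the list of inhibitors of apoptosis, which leaves out Xiap and includes Xaf1, 3 passed the filter. Birc3, which encodes cIAP2, a ubiquitin ligase that acts on RIPK1, was at 6.05, 6.56 and 9.78 in knockouts with HGF and 6.56, 9.73 and 6.31 in knockouts without HGF. It was at 9.82, 9.47 and 9.07 in controls with HGF, against 5.61, 5.53 and 5.43 in controls without HGF, a difference of 3.93 (SE 1.01, limma adjusted p = 0.0989). Birc2, which encodes cIAP1, differed by 2.92 in controls. Xaf1, which encodes an XIAP-associated factor and not an inhibitor of apoptosis, differed by 0.60. In Birc3 the 5 arrays with high Fas lay at 9.07 to 9.82 and the other 7 at 5.43 to 6.56.

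**Figure D5:**
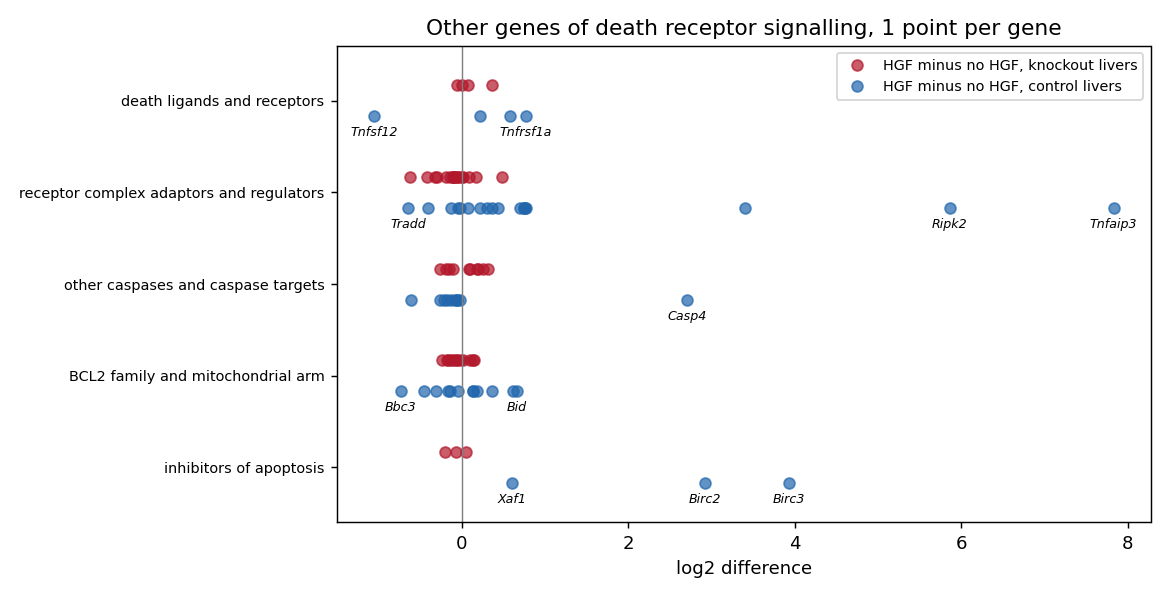
Log2 difference between livers with and without HGF for each tested gene of 5 lists, with the knockout livers above and the control livers below within each list. In control livers the differences reach 7.83 for Tnfaip3 and 3.93 for Birc3, and the list medians lie between -0.11 and 2.92. In knockout livers the differences run from -0.62 for Ripk2 to 0.48 for Tnip1, and the list medians lie between -0.10 and 0.09.

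The genes whose values over the 12 arrays were most like those of a member were ranked by Pearson's r across all 6652 tested probe sets with a symbol. The arrays share groups and processing, so r is given as a measure of likeness only. For Fas they were Heatr1 (r = 0.99), a ribosome biogenesis gene with values near the filter, Ehd1 (r = 0.98), an endosome recycling gene, and Cd14 (r = 0.98), the lipopolysaccharide co-receptor. Cd14 ranged from 2.36 to 8.72 in knockouts with HGF, from 2.75 to 9.02 in knockouts without HGF, from 7.14 to 8.26 in controls with HGF and from 2.81 to 3.41 in controls without HGF. For Ripk1 they were Ets2, a transcription factor gene, Ehd1 and Rrs1, a ribosome biogenesis gene, each at r = 0.98. For Casp8 they were Parp9 (r = 0.92), Slfn8 (r = 0.90) and Hspa14 (r = 0.90), and for Cflar Nbeal1 (r = 0.83), Pkn2 (r = 0.77) and Rassf5 (r = 0.77).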

How the data were processed

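Liver RNA was amplified in one cycle with biotin labels and put on Affymetrix arrays, per the labels' protocols. Each deposited intensity is linear and stands for 1 probe set. The authors made them with GCRMA, per the submitters' processing notes, with version and genome build not given in the sources used here. This method models background from probe sequence and equalises the arrays, so it hides a shift of most genes and compresses dim signals.

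Of 16475 probe sets other than controls, 15780 had a symbol in the platform annotation. The probe set number was the Entrez Gene number in all 15780, and 477 more, Ripk1 among them, were named by that number through a RefSeq gene table. The deposited intensities were taken to log2 after adding 1, which understates folds of dim genes. The 6683 probe sets at or above 4 on at least 3 arrays entered a limma model (version 3.58.1, R 4.3.3) of 4 group means with 8 residual degrees of freedom. All tests were two-sided, with Benjamini-Hochberg adjustment over all 6683. The model was run on simulated data in which the spread of the most variable genes was capped. That run does not cover a gene as variable as Fas, whose SE was 0.70 against a median of 0.178, and no result rests on it. In addition, 18 alternative settings were tried. The 3 arrays of a group are 3 animals, and their number limits the precision.

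The members, the lists, the alternatives and the rule for named genes were chosen with earlier results of these data known. The rule named the 8 members, Met, Tnf and Fasl, in each list the called genes or otherwise the 2 with the largest and the 2 with the smallest HGF effect in controls, and for each tested member the 3 genes most like it; 1 gene under this rule is not reported here.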

Additional observations from a re-analysis of the deposited data

How the results depend on the processing

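The alternatives were log2(intensity + 16), no filter, a replicate block, array weights, the compared groups alone, both knockout arrays numbered 2 left out, and each array left out in turn. In the HGF effect in control livers the count of called members was 2 with array weights, 2 in the compared groups alone and 1 with both knockout arrays numbered 2 left out; it was 0 in every other setting and comparison, leave-one-out included. With the replicate block 0 members were called in any comparison. The main model did not pair samples by replicate number. Within a genotype, the arrays with and without HGF that share a replicate number have consecutive array numbers. The correlation of deviations between the groups with and without HGF was 0.05 to 0.18 for the 3 numbers in controls. It was 0.12, -0.83 and -0.70 in knockouts. With so few arrays per group, some of which stood apart from their group, these values cannot show whether the samples were paired.

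Over all tested probe sets, the HGF effect in control livers had 27 calls, against 41 with log2(intensity + 16), 13 with no filter, 0 with the replicate block, 1279 with array weights, 545 with both knockout arrays numbered 2 left out, 801 in the control arrays alone and 0 to 317 with 1 array left out. The HGF effect in knockout livers had 0 calls, 127 probe sets under an unadjusted p of 0.05 in limma, and 278 calls with both knockout arrays numbered 2 left out. Knockout against control without HGF had 4 calls, against 1 with the replicate block, 150 with array weights, 180 with both knockout arrays numbered 2 left out and 1 to 9 with 1 array left out. Knockout against control with HGF had 1 call, against 275 with array weights, 2 with both knockout arrays numbered 2 left out and 1 to 3 with 1 array left out. The averaged knockout effect had 1 call, against 2 with log2(intensity + 16), 241 with array weights, 57 with both knockout arrays numbered 2 left out and 1 to 9 with 1 array left out. The interaction had 0 calls, against 104 with array weights, 24 with both knockout arrays numbered 2 left out and 0 to 1 with 1 array left out.

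No member's difference that changed sign was called in either setting. Without HGF, knockout minus control changed sign with array weights (-0.24 for Fas, -0.0918 for Ripk1) and with both knockout arrays numbered 2 left out (-0.53 and -0.22), and ranged from -0.53 to 0.69 for Fas and from -0.22 to 0.33 for Ripk1 with 1 array left out. The interaction was 0.40 for Fas and 0.0362 for Casp8 with both knockout arrays numbered 2 left out. With 1 array left out, the HGF effect in knockouts ranged from -0.25 to 1.22 for Fas, from -0.14 to 0.53 for Ripk1 and from -0.0401 to 0.20 for Casp8. The averaged knockout effect then ranged from -0.0603 to 0.0594 for Cflar and from -0.62 to 0.0687 for Fas. The cause of these changes was not tested. Fits that leave out an array rest on 2 arrays in its group, and signal near background limits Tnfrsf10b, Fadd, Casp9 and Xiap.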
